A study of Rattus norvegicus with 3 samples.

Results

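Heparin and a heparin-binding peptide were compared with each other in rat kidneys that had been reperfused with blood, gene by gene, on arrays of pooled RNA. A gene was represented by its probe set (a group of short probes for 1 transcript) with the highest mean over the arrays, and only probe sets with 1 gene symbol were used. It counted as measured when, on the heparin array and also on the peptide array, that probe set was no dimmer than the array median. Of 14218 genes on the array, 9240 were measured in this sense. The heparin value minus the peptide value on the log2 scale is called the difference throughout, so a positive difference means that the transcript was higher in the heparin pool, and a difference of 1 is a 2-fold ratio.

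The study tested heparin and a peptide built on the heparin-binding stretch of the chemokine CCL5 for anti-inflammatory properties in a rat model of kidney donation after cardiac death. The left kidney of a male Wistar rat (370 to 508 g) stayed warm in the dead donor for 20 min, was kept cold in preservation solution for 17 ± 0.7 h, and was then perfused from the femoral artery of a live, anaesthetised recipient for 5 h 43 min ± 21 min. What these ± values stand for (SD or another error) is not stated in the labels. Each of the 3 groups had 7 recipients, and no heparin was given to prevent clotting in any group. RNA of 3 kidneys per group, those of the best RNA quality, was pooled in equal molar amounts for 1 array.

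The heparin group received heparin at 100 U/ml/h, the peptide group received the agent labelled peptide 2 at 0.5 mg/ml, and the control group received saline at 1 ml/h. The 2 doses have no common unit, so nothing is said here of matched doses. The design text of the series calls the delivery a bolus and the treatment protocol calls it an infusion. The control array is printed beside each gene as well. Each array stands for 1 pool, so no difference has a replicate, no test was made, and words such as higher and lower describe these arrays only. Kidney tissue was measured in bulk, in which fewer cells of a type and less RNA per cell cannot be told apart.

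Heparin is a highly sulfated glycosaminoglycan, close in structure to the heparan sulfate chains that cells carry on their surface and in their basement membranes. It binds antithrombin, many growth factors and many chemokines. Chemokines such as CCL5 are held on the vessel wall by heparan sulfate through clusters of basic residues, and a peptide copied from such a cluster can bind the same chains. The kidney tubule that takes most of the ischaemic damage is the proximal tubule, which recovers glucose, amino acids, bicarbonate and organic ions from the filtrate, while the connecting tubule further down makes tissue kallikrein and calbindin.

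The arrays were alike in overall level, with medians over all probe sets of 4.14 (control), 4.16 (heparin) and 4.14 (peptide). The differences of the 9240 genes had a median of 0.00, a mean of -0.06 and an SD across genes of 0.29, and 2728 of them (29.5%) were exactly 0. Genes with 2 or more measured probe sets, 2218 in all, give a measure of technical error within an array pair: the difference of 1 probe set varied around that of its partners with an SD of 0.24. Beta-actin, for which the array has probe sets near each end of the transcript, had a 3' minus 5' gap of 2.95 on the heparin array, against 2.34 on the peptide array and 2.33 on the control array. The same gap of GAPDH was 0.32, 0.37 and 0.36 on these arrays, and that of hexokinase 2.18, 2.28 and 2.18. The part of this beta-actin gap in the results was not tested. The tissue label held against its markers: all 16 genes of the kidney identity list, among them the uromodulin gene Umod, the phosphate carrier Slc34a1 and the nephrin gene Nphs1, lay above the median on all 3 arrays.

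Transcripts were more often lower than higher in the heparin pool. Differences above 0 were seen in 2478 genes (26.8%) and differences below 0 in 4034 genes (43.7%). At 1.5-fold or more, 150 genes (1.62%) were higher in heparin and 422 genes (4.57%) were lower. At 2-fold or more, 26 genes (0.281%) were higher and 78 genes (0.844%) were lower, so that 25% of the genes this far apart were the higher ones. That split depended on the scaling: quantile normalization gave 36 higher and 57 lower (38.7% higher), and subtracting the mean difference, an alternative chosen after the data were seen, gave 35 and 59 (37.2%). Quantile normalization moved the median of all genes by 0.04 and mean subtraction by 0.06. These percentages are the background for every count of list members given here.

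**Figure D1:**
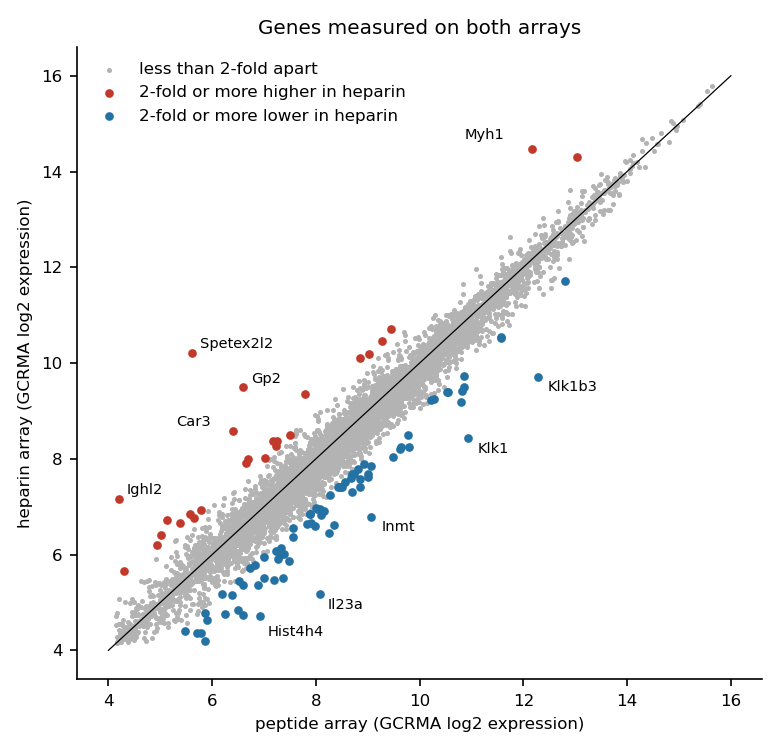
Expression of the 9240 measured genes on the peptide array (x axis) and the heparin array (y axis), both as GCRMA log2 values, 1 point per gene; the line marks equal values. Red points are the 26 genes higher in heparin by 2-fold or more, blue points the 78 lower by 2-fold or more, and blue points outnumber red ones from the faint to the bright end.

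The genes far apart were not confined to faint probe sets. When the measured genes were divided into 4 equal bins by mean level, the heparin pool was at least 2-fold higher in 9, 10, 2 and 5 genes from the faintest to the brightest bin. The lower genes numbered 28, 22, 15 and 13 in the same bins. Of the 50 genes whose dimmer value lay within 0.1 above the filter, 2 were 2-fold apart, and of the 64 within 0.1 below it, which are not counted, 2 were as well.

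The control array shows where each pool stood. Of the 78 genes lower in heparin, 56 had a control value between the other pools, 20 had a control value above both and 2 had one below both. The heparin value was the one farther from control in 65 of these 78 genes and in 18 of the 26 genes higher in heparin. Over all 6512 genes whose pools were unequally far from control, heparin was the farther in 4267 (65.5%). Both distances share the control array, whose value otherwise enters only the choice of a gene's probe set.

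A second probe set tells how far a single value can be relied on. Of the 104 genes at least 2-fold apart, 80 rest on 1 measured probe set. Among the other 24, the next probe set had the same direction in 21, the same direction and at least 1.5-fold in 12, and the same direction and at least 2-fold in 4. It was exactly 0 in 2 genes (Prrc2c and Nr4a3) and opposite in 1 (Gosr1). The 4 genes with 2-fold agreement, singled out after their values were seen, were the high-density lipoprotein receptor gene Scarb1 (-1.36 and -1.71), the urokinase gene Plau (-1.09 and -1.12), the sulfiredoxin gene Srxn1 (-1.07 and -2.01) and the alkaline ceramidase gene Acer2 (1.18 and 1.11).

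**Figure D2:**
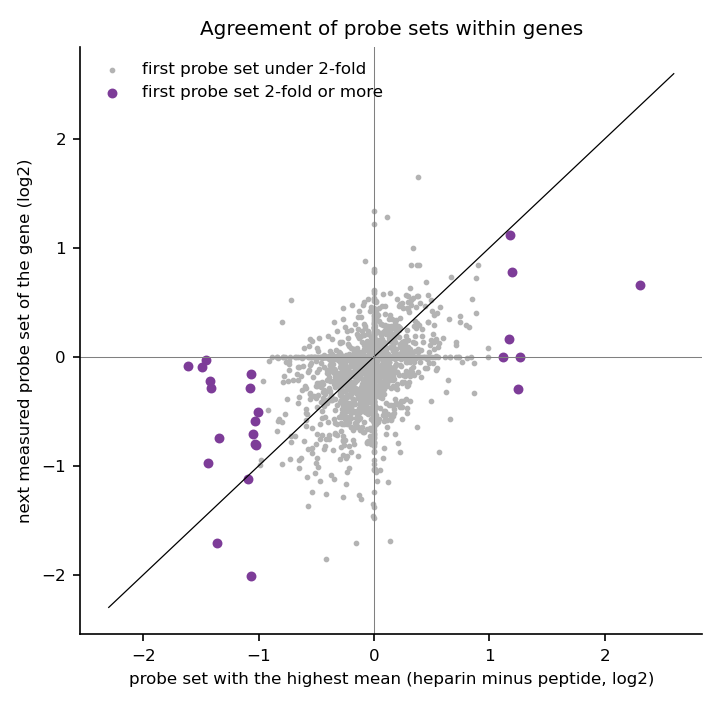
Difference (heparin minus peptide, log2) of the representative probe set on the x axis and of the next measured probe set of the same gene on the y axis, for the 2218 genes that have both; the diagonal marks equality. Purple points are the 24 genes whose representative probe set was at least 2-fold apart; 4 of them are also 2-fold apart in the same direction on the y axis, and several lie near 0.

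The genes highest in heparin relative to peptide came from several functional classes. Gp2, a glycoprotein of secretory granules and of the epithelial cells that sample antigen, read 5.85 in control, 9.49 in heparin and 6.60 in peptide, and heparin stood apart from both other pools. Spetex2l2 read 6.54, 10.22 and 5.62 in the same order, which is 24.3-fold between the treatments. It belongs to a family of similar rat genes, so reads of its relatives by the same probes cannot be told apart from its own. RT1-T24-3, a class I histocompatibility gene of the rat with many close relatives, read 8.59, 9.34 and 7.79. Procr, the endothelial receptor of protein C, read 10.28 in control, 10.72 in heparin and 9.46 in peptide, a 2.40-fold ratio. Most of that ratio lies on the peptide side of control.

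Immunoglobulin transcripts were among the largest positive differences. Ighl2, an immunoglobulin heavy chain gene, read 5.86 in control, 7.16 in heparin and 4.20 in peptide, a difference of 2.96. Its peptide value was near that array's median of 4.14, and the difference was 1.80 with 32 added to unlogged values. Jchain, which links the units of polymeric IgA and IgM, read 5.30, 6.72 and 5.14, a difference of 1.59. Both are products of plasma cells. The remaining B cell and plasma cell markers did not move with them: of 13 on the array only 4 were measured, Xbp1 differed by -0.04 and Sdc1 by -0.02, and Cd79b, Ms4a1, Blk, Pou2af1 and Mzb1 lay at 2.18, the lowest value of the arrays, on all 3 of them. The log2 of the list's summed unlogged level was 11.87 in control, 11.90 in heparin and 11.86 in peptide. Most of it was Xbp1 (11.66, 11.63 and 11.67), so the sum says little of the other markers. The part of blood or lymphoid cells in these differences was not tested.

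Car3 and Myh1 are genes of skeletal muscle by their usual expression, and Car3 also of fat. Car3, a carbonic anhydrase, read 6.31 in control, 8.59 in heparin and 6.41 in peptide. Myh1, a fast myosin heavy chain, read 13.04, 14.48 and 12.17, a difference of 2.31, and its other measured probe sets ranged from 0.66 to 2.02. The other muscle markers were near the bottom of the scale: of 26 on the array, 17 (heparin) and 16 (peptide) lay within 0.01 of the lowest value, among them the creatine kinase gene Ckm, the myosin gene Myh2, the myoglobin gene Mb and the parvalbumin gene Pvalb. Of the markers measured, Tnnc1, a troponin shared by heart and slow muscle, differed by 0.49 and the intermediate filament gene Des by 0.00. The log2 of the summed level of the muscle list was 13.14 in control, 14.54 in heparin and 12.34 in peptide, most of it Myh1. In the adipocyte list 10 of 22 genes were measured with a median of -0.19, 3 above 0 and 6 below; Fabp4, a fatty acid carrier of fat cells and capillary endothelium, was 1.05 higher, and the lipid droplet gene Cidec read 6.86, 6.32 and 7.24, a difference of -0.92. Adipoq, the fat cell hormone adiponectin, was at 2.78 on all 3 arrays, and the log2 of that list's summed level was 14.29, 14.38 and 14.32. The part of muscle or fat tissue in these differences was not tested.

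Several other high genes belong to development or to vessels. Wt1, a transcription factor of podocytes, the filter cells of the glomerulus, read 7.48 in control, 8.0 in heparin and 6.68 in peptide. All 4 podocyte genes of the kidney identity list were above 0, with a median of 0.77: Podxl, a sialoprotein that coats podocytes and endothelium, read 9.42, 10.16 and 9.34, and the actin-associated gene Synpo read 9.30, 9.82 and 9.11. The second probe set of Synpo differed by 0.00, and Nphs1 differed by 0.08. Robo3, a guidance receptor, read 4.31 in control and peptide and 5.66 in heparin. Its peptide value was near that array's median of 4.14, and its difference of 1.35 was 0.67 with 32 added to unlogged values. Angpt2, an antagonist ligand of the endothelial receptor Tie2, read 7.17, 7.91 and 6.64, a 2.40-fold ratio. Krt15, a keratin of basal epithelia, read 4.60, 6.19 and 4.94. Prrc2c (1.27) was left out of the 15 highest because another measured probe set of it went the other way. The remaining genes of the 15 highest were Nxpe3 (1.39), Ccdc127 (1.28) and Cd244l1 (1.27), the last of them a receptor of the SLAM family on natural killer cells. Wt1 also marks mesothelium, and the mesothelial gene Msln was at 2.20 on all 3 arrays.

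The genes lowest in heparin were led by Il23a, which encodes the p19 chain of interleukin 23, a cytokine that maintains Th17 cells. It read 6.66 in control, 5.17 in heparin and 8.08 in peptide, so that the control pool lay between the treatments and the ratio of 7.50-fold comes from both sides. Mmp3, the matrix protease stromelysin, read 7.47, 5.51 and 7.36, and Golph3, a Golgi phosphoinositide-binding protein, read 8.48, 6.45 and 8.26. In these genes peptide and control were close and heparin was the low pool. Calb1, the cytosolic calcium buffer of the connecting tubule, read 11.01, 9.18 and 10.79, a 3.04-fold ratio. Kif11, a motor protein of the mitotic spindle, read 7.37, 5.88 and 7.49, but its second probe set differed by only -0.09. Fam83h (-1.73), Atosb (-1.72), the endolysosomal channel gene Tpcn2 (-1.66) and Rusc2 (-1.64) completed the 15 lowest together with the genes described with their families. Tpcn2 read 4.20 in heparin, near that array's median of 4.16, and was at -0.84 with 32 added to unlogged values. Adra2b, an adrenergic receptor further down the order at -1.44, had other probe sets from -0.97 to 0.26.

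**Figure D3:**
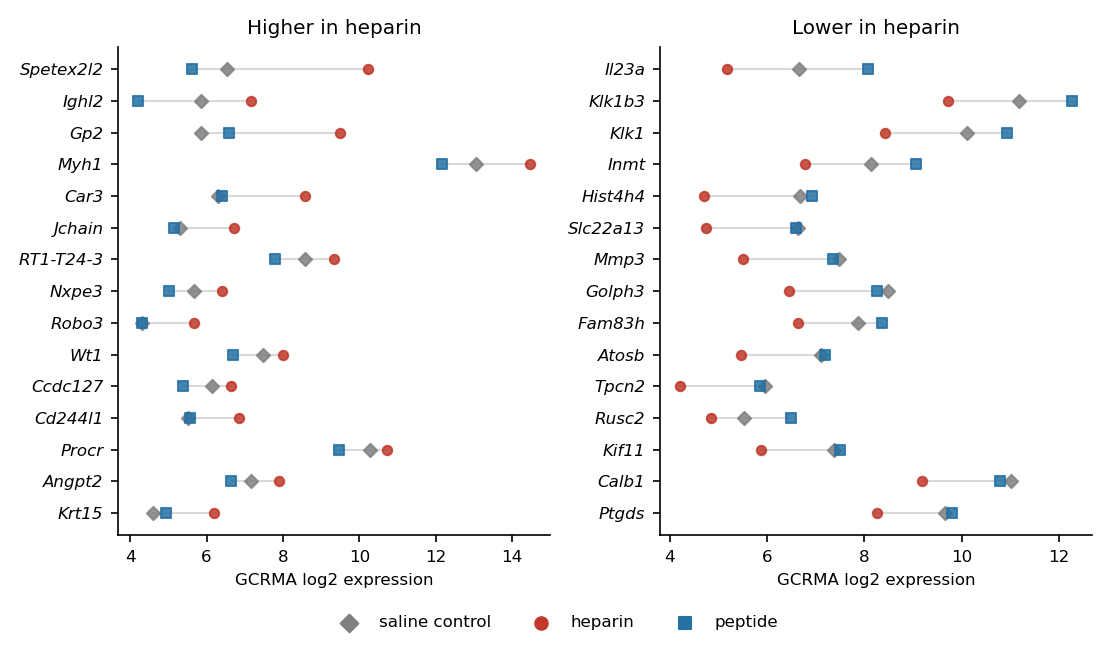
GCRMA log2 expression on the control (grey diamonds), heparin (red circles) and peptide (blue squares) arrays for the 15 genes with the largest positive difference (left) and the 15 with the largest negative difference (right); each symbol is 1 pooled array. In Il23a, Klk1b3, Klk1 and Inmt the control value lies between the treatments, while in Golph3, Mmp3, Calb1 and Ptgds it lies near the peptide value.

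Tissue kallikreins were among the transcripts furthest apart. Tissue kallikrein is a serine protease that cuts kinins, which dilate vessels, from kininogen, and the rat has a cluster of closely related kallikrein genes on chromosome 1. The upstream sequences of the 3 family members that differed are shown because the genes sit in 1 cluster. They are the 250 bases before the RefSeq gene start in GRCr8, 5' to 3' on the gene's strand, with capitals at bases that are aligned and identical in all 3: Klk1 at chr1:103778902-103779151 (plus strand), Klk1b3 at chr1:103845397-103845646 (plus strand) and Klk1c4 at chr1:103575209-103575458 (minus strand).
Klk1: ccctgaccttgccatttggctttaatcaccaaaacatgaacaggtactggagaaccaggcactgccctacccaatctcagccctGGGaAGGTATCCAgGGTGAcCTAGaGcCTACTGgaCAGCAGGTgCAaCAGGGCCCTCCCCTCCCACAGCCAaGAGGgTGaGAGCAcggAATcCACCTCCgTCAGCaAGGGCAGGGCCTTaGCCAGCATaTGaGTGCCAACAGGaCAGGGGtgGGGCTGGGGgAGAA
Klk1b3: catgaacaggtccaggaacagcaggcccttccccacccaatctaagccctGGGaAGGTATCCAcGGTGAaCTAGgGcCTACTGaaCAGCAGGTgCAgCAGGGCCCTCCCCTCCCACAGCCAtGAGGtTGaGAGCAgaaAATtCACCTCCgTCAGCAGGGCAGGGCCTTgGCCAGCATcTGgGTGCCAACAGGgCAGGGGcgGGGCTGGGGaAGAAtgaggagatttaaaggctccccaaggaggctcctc
Klk1c4: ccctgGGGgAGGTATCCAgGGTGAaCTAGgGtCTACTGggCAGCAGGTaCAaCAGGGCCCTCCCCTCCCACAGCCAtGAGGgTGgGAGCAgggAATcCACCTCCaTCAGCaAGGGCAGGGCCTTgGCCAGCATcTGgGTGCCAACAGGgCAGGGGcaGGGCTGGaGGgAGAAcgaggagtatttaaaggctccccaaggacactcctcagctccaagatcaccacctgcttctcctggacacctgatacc

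In pairwise global alignments, Klk1 and Klk1b3 were identical at 87.9% of 215 aligned bases, Klk1 and Klk1c4 at 90.6% of 171, and Klk1b3 and Klk1c4 at 90.2% of 205. These shares describe the windows and say nothing of control, nor of whether the probe sets read each other. Klk1, tissue kallikrein itself, read 10.12 in control, 8.43 in heparin and 10.92 in peptide, a 5.62-fold ratio. Klk1b3, a kallikrein of the same cluster, read 11.18, 9.71 and 12.27, a 5.93-fold ratio. In both genes heparin lay below control and peptide above it. Of the 12 kallikrein genes on the array these were the 2 measured on both arrays. Klk1c4 read 6.74 in control, 2.78 in heparin and 7.39 in peptide; because its heparin value is under the array median it has only a bound, at least 9.36-fold higher in peptide, taken against the median of the heparin array. Since the rat kallikreins are close paralogs, the 3 values are uncertain as readings of separate genes.

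The rest of the vasoactive list did not share this size. Of its 57 genes on the array 25 were measured, with a median of 0.00, 10 above 0 and 12 below. Among processing enzymes, Cpe, the carboxypeptidase that trims peptide hormones, read 7.18 in control, 8.47 in heparin and 7.60 in peptide. Gucy1a1, the alpha subunit of the nitric oxide receptor guanylate cyclase, read 5.48 in control and peptide and 6.15 in heparin. Ramp2, a partner of the adrenomedullin receptor, read 6.36, 6.11 and 5.54, so that both treated pools lay below control. Prostanoid genes also went both ways. Ptgds, the synthase of prostaglandin D2, read 9.65, 8.25 and 9.80, a 2.93-fold ratio, whereas Ptger3, a receptor of prostaglandin E2, read 9.56, 10.19 and 9.02. The second probe set of Ptger3 differed by only 0.16. Ephx1, the microsomal epoxide hydrolase, was at -0.87, the secreted phospholipase gene Pla2g2a at 0.56 and the inducible cyclooxygenase gene Ptgs2 at 0.45. The 20 measured genes of that list had a median of 0.05, with 12 above 0 and 7 below.

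Genes of the circadian clock were mostly lower in the heparin pool. The clock is a loop in which the activators CLOCK and BMAL1 switch on their own repressors (Per, Cry, Bhlhe40, Bhlhe41, Nr1d1) through a sequence called the E-box, and many kidney transporters follow its output factors (Dbp, Tef, Hlf). Of 23 clock genes on the array 19 were measured, with a median of -0.31, against 0.00 over all genes. Among them 2 were above 0 and 16 below. By role, 2 of 6 activators were measured, beside 10 of 10 repressors and 7 of 7 output genes, so the activators were mostly not read. Under quantile normalization the median was -0.25, with 3 above 0 and 16 below, and subtracting the mean difference also gave -0.25. Across all alternatives the median lay between -0.31 and -0.15. At 1.5-fold, 5 of the 19 were lower and 0 were higher, where 4.57% of all genes were lower. The labels give no time of day for the recipients, so sampling time was not tested.

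An exact E-box (CACGTG, which reads the same on both strands) was searched for in the 250 bases before each RefSeq gene start. The 4 measured clock genes that have it are shown with 30 bases on each side, since they include the repressors that were furthest apart. Capitals mark the motif, sequences run 5' to 3' on the gene's strand, and coordinates are those of GRCr8: Bhlhe40 at chr4:143174200-143174265 (plus strand), Bhlhe41 at chr4:180569368-180569433 (minus strand), Nr1d1 at chr10:84229610-84229675 (minus strand) and Tef at chr7:115206599-115206664 (plus strand).
Bhlhe40: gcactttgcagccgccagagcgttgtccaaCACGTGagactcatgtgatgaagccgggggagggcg
Bhlhe41: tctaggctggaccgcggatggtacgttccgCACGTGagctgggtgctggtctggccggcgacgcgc
Nr1d1: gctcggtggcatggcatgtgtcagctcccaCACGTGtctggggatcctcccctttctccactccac
Tef: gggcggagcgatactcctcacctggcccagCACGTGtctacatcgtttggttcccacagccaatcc

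The motif was present in 4 of the 15 measured clock genes that have a RefSeq promoter (26.7%). It was present in 705 of the 7747 measured genes that have one (9.1%). In these counts a gene has the motif if any promoter of it does. Counted per promoter, a different unit, the share was 5.59% of all 33469. Of the 705 measured genes with the motif, 6 were higher and 34 lower by 1.5-fold or more. Of the 7042 without it, 110 were higher and 319 lower, and the median was 0.00 in both. The part of the motif in the differences was not tested. A match is a match of letters and was not tied to binding here. Bhlhe40, a repressor that competes for E-boxes, read 9.63 in control, 9.29 in heparin and 10.25 in peptide. Bhlhe41, its paralog, read 7.26, 7.06 and 7.94. Nr1d1, the nuclear receptor REV-ERB alpha, read 6.65, 6.85 and 7.51. In these 3 genes peptide was the highest pool and heparin lay closer to control than peptide did. Tef, an output factor, differed by -0.08.

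Several other clock genes were lower in heparin than in both control and peptide. Rora, the nuclear receptor that drives Bmal1 transcription, read 8.84 in control, 7.69 in heparin and 9.0 in peptide, a 2.48-fold ratio. Usp2, a clock-controlled deubiquitinase, read 8.87, 8.21 and 9.63, but its second probe set differed by only -0.22. Wee1, a cell cycle kinase under clock control, was at -0.55, the output factor Hlf at -0.50 and the repressor Cry2 at -0.44. The period genes were close to equal, with Per1 at -0.15, Per2 at -0.13 and Per3 at 0.00, and Nr1d2, REV-ERB beta, was the highest of the list at 0.18. The Kruppel-like factors, zinc finger regulators several of which answer to stress and hormones, had a median of -0.27 over 13 measured genes, with 1 above 0 and 8 below. Klf4 read 10.06, 9.57 and 10.37, Klf11 read 8.11, 7.46 and 8.11, and the glucocorticoid-induced Klf15 read 7.69, 7.45 and 7.90. After quantile normalization the same family had a median of -0.21 with 5 above 0 and 8 below.

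**Figure D4:**
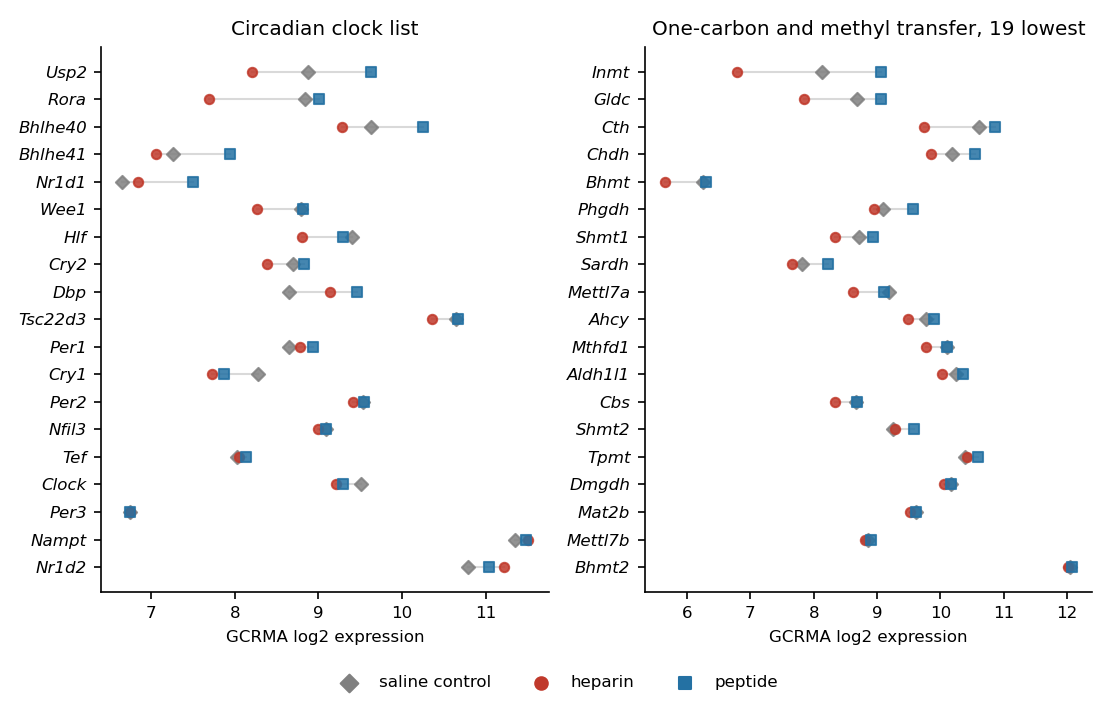
GCRMA log2 expression on the control (grey diamonds), heparin (red circles) and peptide (blue squares) arrays for the 19 measured clock genes (left) and the 19 lowest of the 31 measured genes of one-carbon metabolism (right), ordered by heparin minus peptide; each symbol is 1 pooled array. In the upper rows the heparin symbol is leftmost in most genes, apart from Nr1d1 and Dbp, where control is lower, and the period genes sit near equality.

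Genes of one-carbon and methyl metabolism were lower in heparin as a list and in several single steps. This network moves methyl groups from choline, glycine and serine through folate and methionine to S-adenosylmethionine, and proximal tubule cells express much of it. Of 31 measured genes, 7 were above 0 and 20 below, with a median of -0.11 (12 and 19 with a median of -0.04 after quantile normalization). At 1.5-fold, 7 were lower and 0 higher, where 4.57% of all genes were lower and 1.62% higher. At 2-fold 3 were lower, where 0.844% of all genes were. Inmt, which methylates indoleamines and selenium and tellurium compounds, read 8.13 in control, 6.78 in heparin and 9.06 in peptide. Gldc, the decarboxylase of the glycine cleavage system, read 8.69, 7.85 and 9.06, a 2.32-fold ratio. Cth, which makes cysteine from cystathionine, read 10.61, 9.73 and 10.86, a 2.18-fold ratio. In each of the 3 the heparin pool was the lowest and the peptide pool the highest. Chdh, the choline dehydrogenase, read 10.19, 9.85 and 10.55, and Bhmt, which methylates homocysteine from betaine, read 6.26, 5.66 and 6.29.

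The genes of vitamin A and vitamin D handling had a median of 0.00 over 21 measured, but 4 were at least 1.5-fold lower and 0 higher. Of all genes 4.57% were lower and 1.62% higher by as much. Rbp4, the plasma carrier of retinol, read 7.88 in control and peptide and 6.91 in heparin, a 1.97-fold ratio. Gc, the vitamin D binding protein that the proximal tubule takes up, read 8.91, 8.69 and 9.48. Rarres1, a retinoic acid response gene, was at -0.65 and the receptor gene Rara at -0.58. Stra6, the membrane receptor of RBP4, read 7.60, 5.51 and 7.00, but other measured probe sets of Stra6 lay between -0.09 and 0.00, so its value rests on 1 probe set.

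Proximal tubule transport was lower in heparin for some carriers and not for others. Over the whole solute carrier family, 194 measured genes had a median of -0.07, with 33 above 0 and 124 below, which became 90 and 103 after quantile normalization and 96 and 98 after mean subtraction. At 1.5-fold, 22 were lower and 3 higher, where 4.57% of all genes were lower and 1.62% higher. At 2-fold 3 were lower, where 0.844% of all genes were. Slc22a13, a carrier of urate and nicotinate, read 6.64 in control, 4.73 in heparin and 6.59 in peptide. Slc22a4, the ergothioneine and carnitine carrier, read 8.48, 7.59 and 8.85, and Slc16a9, a monocarboxylate carrier, read 8.22, 7.24 and 8.28. In each of these heparin alone was low. Slc51a, a subunit of the bile acid exporter of basolateral membranes, went the other way at 5.03, 6.28 and 5.29, a 1.99-fold ratio. The list of organic ion and drug carriers had a median of -0.05 over 42 genes, which was 0.00 after quantile normalization and 0.01 after mean subtraction. Among its pumps Abcb1a, the P-glycoprotein that exports many drugs, read 8.30, 7.41 and 8.43, and a second probe set differed by -0.81.

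Water, proton and bicarbonate genes had a median of -0.20 over 22 measured, 7 above 0 and 14 below (10 and 12 after quantile normalization). Slc9a3, the apical sodium-proton exchanger of the proximal tubule, read 9.59 in control, 9.29 in heparin and 10.12 in peptide. Car14, a membrane carbonic anhydrase, was at -0.75 with a second probe set at -0.39. Slc4a4, which carries bicarbonate out of the same cells, read 11.67, 11.06 and 11.67, and its second probe set differed by -0.77. The water and glycerol channel gene Aqp7 was at -0.50. Amino acid carriers had a median of -0.09 over 25 genes, with the light chain Slc7a8 at -0.68 and its relative Slc7a6 at 0.71. Mitochondrial carriers had a median of -0.03 over 32 genes (0.03 after mean subtraction). At 1.5-fold, 6 were lower and 0 higher, where 4.57% of all genes were lower and 1.62% higher. The lowest were the pyrimidine nucleotide carrier Slc25a33 (-0.95) and the iron importer mitoferrin, Slc25a37 (-0.87).

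Lipid and glucose genes differed by small amounts with single larger members. The sterol and lipid list had a median of -0.11 over 47 genes, 6 above 0 and 28 below (23 and 24 after quantile normalization). Scarb1, the receptor for high-density lipoprotein, read 6.86 in control, 5.90 in heparin and 7.27 in peptide. Fads1, a fatty acid desaturase, read 9.0, 8.25 and 9.04. Plin2, the coat protein of lipid droplets, read 12.85, 11.74 and 12.54, but a second probe set of Plin2 was at 0.32. Enzymes that make or split acyl-CoA had a median of -0.14 over 29 genes, 3 above 0 and 20 below (13 and 16 after quantile normalization), with the thioesterase genes Acot3 at -0.99 and Acot4 at -0.66. In glucose metabolism, the 13 measured genes of gluconeogenesis and fructose use had a median of -0.26, 2 above 0 and 10 below. Slc2a2, the basolateral glucose carrier GLUT2, read 11.31, 10.66 and 11.34. Glycolysis genes had a median of -0.05 over 25, with the pyruvate kinase gene Pklr at -0.83 and its second probe set at -0.01. Akr1b1, the aldose reductase, was at 0.50.

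Enzymes that conjugate drugs and metabolites followed the same pattern of low single members. Of 14 measured glutathione transferases 11 were below 0 and 1 above, with a median of -0.10 (-0.10 after quantile normalization, -0.04 after mean subtraction). Gstm2 read 7.58 in control, 7.09 in heparin and 7.81 in peptide. Ugt2b7, a glucuronosyltransferase, read 7.22, 5.98 and 7.31, a 2.50-fold ratio, and the sulfotransferase gene Sult1b1 read 10.75, 10.41 and 11.14. Cytochromes P450 had a median of 0.00 over 21 genes, 7 above 0 and 7 below. Cyp1a1, the enzyme induced through the aryl hydrocarbon receptor, read 8.18, 6.57 and 7.24, below control in both treated pools.

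Mitochondrial genes were a little lower in heparin and cytosolic ribosomal genes a little higher. Subunits of the respiratory chain and ATP synthase had a median of -0.07 over 75 genes, 9 above 0 and 51 below (25 and 50 after quantile normalization, 32 and 43 after mean subtraction). Ndufb8, a subunit of complex I, read 7.38 in control, 7.08 in heparin and 7.80 in peptide. Atp5f1d of ATP synthase and Cox6a1 of complex IV both differed by -0.61. Mitochondrial ribosomal proteins had a median of -0.08 over 73 genes, with 11 above 0 and 46 below, and these counts were 35 and 38 after quantile normalization. Cytosolic ribosomal proteins had a median of 0.05 over 41 genes, 27 above 0 and 7 below (32 and 8, and 39 and 2, under the same alternatives). None of the 41 was 1.5-fold apart, where 1.62% of all genes were higher and 4.57% lower. The extremes were Rpl37a at 0.37 and Rpl23a at -0.28. Proteasome genes, translation factors and heat shock proteins had medians of 0.00. Among proteasome genes Psmb8, an interferon-induced catalytic subunit, read 7.88, 9.47 and 8.51; without the immunoproteasome and activator genes, a subset formed after the values were seen, the range was -0.40 to 0.33 over 39 genes.

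The heparan sulfate machinery, the endogenous relative of the infused drug, was close to equal in the pools. Of 48 genes on the array 33 were measured, with a median of 0.00, 12 above 0 and 11 below. All differences lay between -0.48 and 0.51, so that 0 of 33 reached 1.5-fold. Of all genes only 1.62% were higher and 4.57% lower by as much, so few would be in a list of this size. The ends of that range were B3gat3, which finishes the linker of the chain, at 6.68, 6.19 and 6.68 in control, heparin and peptide, and Col18a1, a basement membrane core protein, at 9.73, 10.08 and 9.57. A second probe set of Col18a1 differed by -0.05. The surface core protein Gpc1 was at 0.45, the granule proteoglycan Srgn at 0.32 and the sulfate donor synthase Papss1 at -0.38. By role, the medians were 0.00 for 11 core proteins, 0.00 for 8 genes of chain synthesis, -0.11 for 8 of sulfation and 0.03 for 6 of removal. Under quantile normalization 25 of the 33 were above 0 and 8 below, with a median of 0.07.

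**Figure D5:**
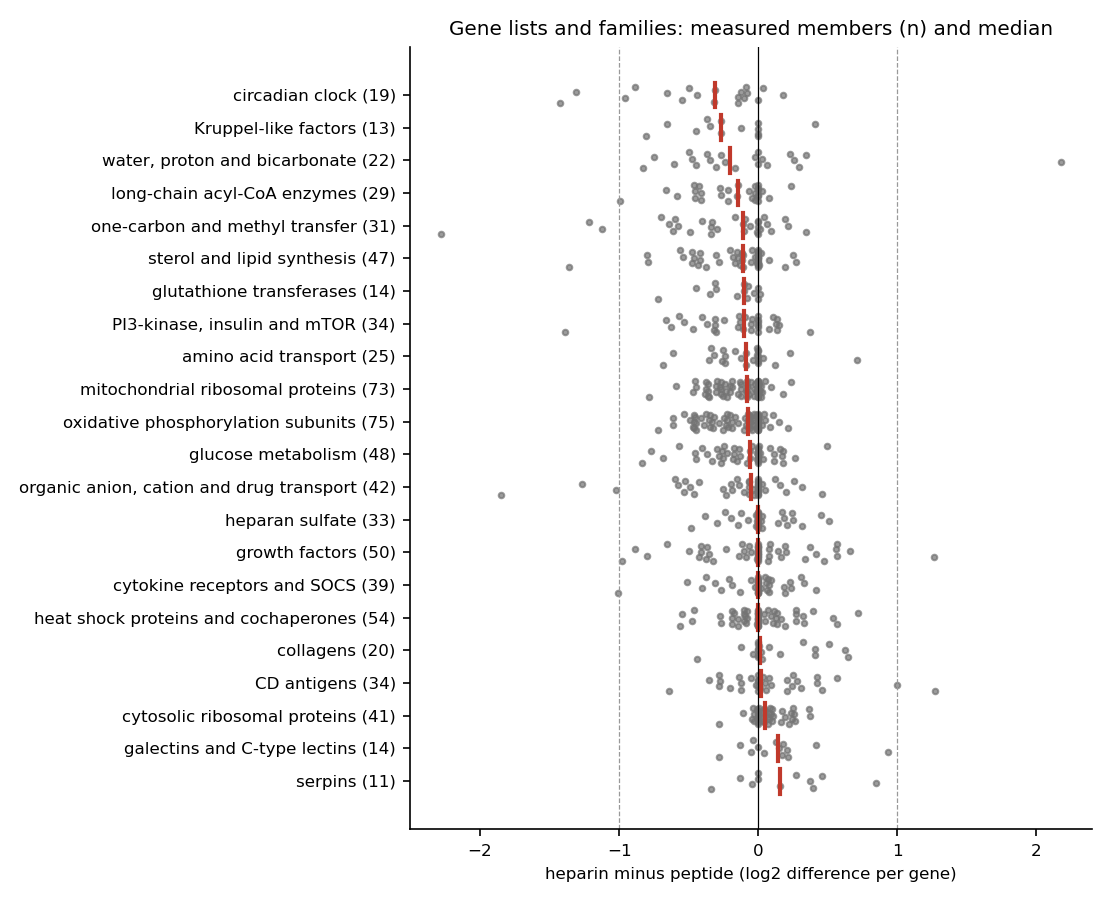
Difference (heparin minus peptide, log2) of each measured member (grey points) of 22 gene lists and families, with the list's median as a red bar; numbers in parentheses count measured members, and dashed lines mark 2-fold. Among the lists drawn, the clock and Kruppel-like medians lie furthest below 0, the serpin and lectin medians furthest above it, and the heparan sulfate points stay inside the range from -0.48 to 0.51.

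Growth factor signalling, much of which depends on heparan sulfate, had a median of 0.00 over 50 genes, 17 above 0 and 22 below. Among ligands Angpt2 was higher in heparin, while Gdf15, a stress-induced cytokine, read 7.60 in control, 6.84 in heparin and 7.72 in peptide, and Areg, a ligand of the EGF receptor, read 7.63, 7.27 and 8.07. Among receptors Met, the receptor of hepatocyte growth factor, read 8.33, 6.85 and 7.82, a 1.97-fold ratio, and Axl, the receptor of GAS6, read 9.19, 9.77 and 9.11. The median of the list was 0.05 after quantile normalization, with 31 above 0 and 19 below, so its balance turns with the scaling.

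Downstream kinases had single low members. Pik3r1, the p85 regulatory subunit of PI3-kinase, read 8.42 in control, 6.59 in heparin and 7.98 in peptide, a 2.61-fold ratio. Its list had a median of -0.10 over 34 genes, 7 above 0 and 21 below (16 and 18 after quantile normalization). Trib3, a pseudokinase that restrains AKT, was at -0.66 with other probe sets between -0.09 and 0.00, and Sesn3, a sestrin that restrains mTOR, was at -0.63. Among MAP kinase phosphatases Dusp5 read 10.70, 10.45 and 11.33, and among ephrin receptors and semaphorins Epha2 read 9.22, 8.24 and 9.64 and Sema4b 9.92, 9.24 and 10.27. Both of the last lay at or past 2-fold, in a family of 20 measured genes with a median of 0.00.

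Cell cycle genes had a median of 0.00 over 27 genes. Cdc25b, a phosphatase that starts mitosis, read 6.60 in control, 5.45 in heparin and 6.52 in peptide. Ccnd1, cyclin D1, read 10.15, 9.70 and 10.54, and its other probe sets lay between -0.76 and -0.59. Mdm2, the ligase that removes p53, read 10.64, 9.90 and 10.70, with other probe sets between -1.01 and -0.59. Ccnd1 and Mdm2 therefore rest on several probe sets with 1 direction. Ccnd2, cyclin D2, went the other way at 7.85, 7.85 and 7.06. Of 8 measured histone genes 6 were below 0 and 1 above; Hist4h4 read 6.68, 4.71 and 6.93 and the linker histone gene H1f2 12.09, 11.79 and 12.60. Histone genes are near copies of each other, so the probe sets may read several of them.

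TGF-beta, Wnt and Notch genes had medians of 0.00. Fstl1, a secreted follistatin-like protein, read 8.64 in control, 9.26 in heparin and 8.37 in peptide, with other probe sets between 0.16 and 0.40. Acvrl1, the endothelial receptor ALK1, read 6.03, 6.20 and 5.47. Sfrp2, a secreted Wnt antagonist, read 6.35, 5.94 and 7.00, a 2.08-fold ratio. The Notch ligand gene Dll1 was at -0.90 and the Notch target gene Hes1 at -0.59, while the endothelial ligand gene Dll4 was at 0.34 and Notch1 at 0.39. A second probe set of Notch1 was at 0.04. Nuclear receptors had a median of 0.00 over 21 genes, and Nr4a3, an immediate early receptor, read 6.53, 6.77 and 5.65, with a second probe set at 0.00.

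Cytokine and TNF receptor genes were mixed. Prlr, the prolactin receptor, read 8.71 in control, 7.68 in heparin and 8.69 in peptide, a 2.01-fold ratio, and its other probe sets lay between -0.89 and -0.50. Cish, a feedback inhibitor of STAT5 signalling, was at -0.51 with a second probe set at -1.07. Both genes were lower in heparin in every measured probe set. Tnfrsf21, death receptor 6, read 9.43, 9.16 and 10.14, and its second probe set gave -0.99 beside -0.98. Tnfrsf12a, the receptor of TWEAK, read 12.18, 11.57 and 12.30. On the other side, Tnfrsf11b, the decoy receptor osteoprotegerin, read 5.74, 6.41 and 5.61, and the B cell factor gene Tnfsf13 read 9.02, 9.61 and 9.01. The second probe set of Tnfsf13 differed by only 0.17. The 39 measured cytokine receptors and their signalling partners had a median of 0.00, as did the 31 of the TNF family. In the latter, 3 were at least 1.5-fold higher and 2 lower, where 1.62% of all genes were higher and 4.57% lower.

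The marker lists of T cells and NK cells and of neutrophils and mast cells gave no common direction. Of 24 T cell and NK cell markers 4 were measured, Cd3e and Gzmk had identical values on all 3 arrays, Klrk1 differed by -0.55 and Gzmb by 0.34, and Cd3d, Cd4, Cd8b and Ncr1 lay at the lowest value of the arrays. The log2 of that list's summed level was 8.06 in control, 8.19 in heparin and 8.20 in peptide. Of 28 neutrophil and mast cell markers 11 were measured, with a median of 0.00, the calprotectin genes S100a8 at -0.50 and S100a9 at -0.32, and Csf3r, the receptor of granulocyte colony-stimulating factor, at 8.45 in control and heparin and 8.37 in peptide. The mast cell genes Cpa3, Mcpt1, Tpsab1 and Kit lay at the lowest value. Cell-surface antigens named CD had a median of 0.02 over 34 genes, 18 above 0 and 11 below (22 and 12 after quantile normalization). Among them Cd200, an inhibitory ligand on endothelium and lymphocytes, read 8.04, 8.50 and 7.50. The activation antigen Cd69 read 4.66, 5.83 and 6.47, while Cd68 was at 0.56 and Cd53 at 0.46. Lectins had a median of 0.14 over 14 genes, 9 above 0 and 4 below, led by Lgals9, galectin 9, at 7.20, 8.91 and 7.97. Serpins had a median of 0.16 over 11 genes, 6 above 0 and 3 below. Serpinb9, the inhibitor of granzyme B, read 9.63, 10.41 and 9.56, with a second probe set at 0.53.

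Collagens were more often above 0 than below it, and so were the ADAM and ADAMTS proteases (14 measured, median 0.00, 6 above and 2 below). The other matrix families given here were not. Of 20 measured collagens 12 were above 0 and 3 below, with a median of 0.01 (17 and 3 with 0.07 after quantile normalization), where 26.8% of all genes were above 0. Col3a1 read 7.73 in control, 7.90 in heparin and 7.26 in peptide, and Col1a1 read 6.19, 6.57 and 5.95. Laminins and integrins had a median of 0.00 over 28 genes, 8 above 0 and 9 below, metallopeptidases and their inhibitors 0.00 over 11, 3 above and 4 below, and growth factor binding and matricellular proteins 0.00 over 11, 3 above and 5 below. Some single genes of smooth muscle and vessels, named as the largest members of other families, were higher in heparin. No list of such genes was made, so they were picked by size and not as a set. The 21 measured actin and myosin genes had a median of 0.07, 11 above 0 and 8 below. Tpm2 and Myh11, contractile genes of smooth muscle, were equal in control and peptide and higher in heparin by 0.67 and 0.63. Ptprb, the phosphatase of vascular endothelium, read 9.89, 10.47 and 9.72, with a second probe set at 0.37, and the gap junction gene of arterial endothelium Gja4 read 6.25, 7.07 and 6.37. Rgs2, which dampens vasoconstrictor signalling, read 9.62, 10.27 and 9.60, and its second probe set gave 0.74 beside 0.67. The phosphodiesterase gene Pde4b read 9.04, 9.93 and 9.11, a difference of 0.82, but its second probe set was at 0.27. Adamts4, an aggrecanase, was at 0.70. Tight junction genes had a median of -0.17 over 13, with Cldn10 at -0.61 and Cldn2, the pore claudin of the proximal tubule, at -0.60; the junction list as a whole had medians of 0.01 after quantile normalization and 0.06 after mean subtraction.

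A few genes that were bright in 1 pool and under the array median in the other have only bounds. Rup2 read 3.79 in control, 8.29 in heparin and 2.18 in peptide, at least 17.8-fold higher in heparin, and its other probe sets differed by 2.58, 1.45 and 0.01. Saxo4, a microtubule-associated protein of cilia, read 4.94, 4.03 and 6.04, at least 3.68-fold higher in peptide. Besides these and Klk1c4, only Ifit1, an interferon-induced RNA-binding protein, had such a bound of 2-fold or more, at least 6.83-fold higher in heparin.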

How the data were processed

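Total RNA of 3 kidneys per group was pooled and hybridised to 1 Affymetrix rat array per group (control, heparin, peptide), after labelling 6 µg. The deposited log2 values per probe set were made by the authors with GCRMA, per the submitters' processing notes; its version, its settings and any between-array scaling are not stated there. GCRMA pulls faint probe sets to a common low value and can give exact ties between arrays. The ties were not confined to faint probe sets: 1 probe set of Atp1b1 read 13.39 on all 3 arrays. The source of ties in bright probe sets was not tested. Values were used as deposited. Of 31099 probe sets, 20832 had 1 symbol in the platform annotation, 436 several and 9831 none; 20764 matched a RefSeq gene of GRCr8, with 0 symbols changed. Arrays have no read depth, and their number, 1 per group, limits the precision.

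Differences were taken between arrays with Python 3.11.15, numpy 2.4.6 and pandas 2.3.3. The code was run on simulated data without the ties seen here, so that check does not vouch for any difference on these arrays. No test was made. The members, 36 gene lists and 38 name families were chosen with earlier results of these data known; of 1612 list entries, 1415 matched by symbol, 25 by synonym and 172 were not matched. Named genes were the 15 largest differences in each direction (without locus-number names or genes with a measured probe set of opposite sign), up to 5 bounds a direction and up to 5 members of each list or family with the largest absolute difference; others were chosen after their values were seen, as were the marker and clock genes given to complete a list. A bound is the bright value, at or above the 60th percentile, minus the dim value or the median of the dim array, whichever is higher. Promoters come from RefSeq. Alternatives were quantile normalization, centring, filters, other rules for probe sets, and 32 added to unlogged values.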

Additional observations from a re-analysis of the deposited data

How the results depend on the processing

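The count of genes at least 2-fold higher in heparin, 26 as reported, became 16 when the filter was set to the 60th percentile, 49 unfiltered and 15 when 32 was added to unlogged values. The count at least 2-fold lower, 78, was 40 after that addition. Fewer or more genes enter under the other filters, and adding 32 shrinks differences of faint genes by construction. Of the 104 genes, 31 stayed at least 2-fold apart in all 9 alternatives, and 10 more did in the 8 in which they were measured. Of 621 list medians 26 moved by 0.1 or more, and 10 of 69 lists had a median of the other sign in some alternative (8 if medians within 0.005 of 0 are left out). Of 3603 gene values, 161 moved by more than the SD between probe sets. Of the genes at least 2-fold apart, 1 changed sign: Adra2b was 0.26 with its measured probe set of smallest difference. Of 304 named genes under 2-fold, 9 changed sign in some alternative, among them Plin2 (0.32 with the same rule). The cause was not tested. Because many differences are exactly 0, a small shift between arrays turns the counts above and below 0. With 1 array per group no replicate can be left out, and no difference has a replicate check. No paired analysis was possible because each group has 1 array. The signal of faint probe sets, not depth, limits low genes, and the pools hold kidneys chosen by RNA quality.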
